A study of Homo sapiens with 8 samples.

Results

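The response of MRC5 lung fibroblasts with a control hairpin to TGF-β1 was described across all genes that could be measured. It rests on 4 of the 8 libraries of the series, namely shMock control replicates 1 and 2 and shMock TGF-β1 replicates 1 and 2. Of the 60666 gene IDs in the table, 13493 averaged at least 1 CPM over the 8 libraries and were tested. CPM is the count scaled to a common library total, with library sizes adjusted by trimmed means. MRC5 is an established line of human lung fibroblasts, and RNA was measured by bulk sequencing of libraries made with an mRNA kit. Both shMock groups were transduced with the control hairpin, and no untransduced cells are among the libraries. The TGF-β1 group received 4 ng of TGF-β1, given without a volume, for 24 h. The same treatment text stands on the control samples, so the groups follow the sample titles and the treatment field. The other 4 libraries are the same line with a hairpin against MTHFD2, without and with TGF-β1, and serve for the estimate of spread and for 1 comparison. Each group held 2 libraries, and nothing says whether these came from separate cultures, so p-values measure no more than how far these libraries differ, which can be technical.

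TGF-β1 is stored in the matrix in a latent form and is freed by integrins and proteases. The free cytokine joins a pair of receptor kinases that phosphorylate SMAD2 and SMAD3, and these enter the nucleus with SMAD4. In the lung it turns resting fibroblasts into myofibroblasts, cells that contract through smooth-muscle actin and lay down collagen and fibronectin in scars and in tumour stroma.

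The cells carried the RNA of fibroblasts. All 14 fibroblast markers passed the filter, and COL1A2, a chain of type I collagen, stood at 9571 and 8406 CPM without TGF-β1 and 13006 and 12066 CPM with it. The extraction text in the labels speaks of A549, a lung carcinoma line, and of a hairpin against another gene. Of 14 epithelial and A549 markers, 3 passed the filter, with a summed level of 49.2 and 44.0 CPM without TGF-β1 and 44.0 and 39.5 CPM with it. Of those that passed, KRT8 was the 1 called lower, a call that not every alternative fit kept. Of the 11 that did not pass, KRT19, NKX2-1 and SFTPC had no counts in any of the 4 libraries. For endothelium 3 of 8 markers passed, and PECAM1 and CDH5 had no counts, while the receptors TEK and KDR summed with VWF to 109.9 and 98.7 CPM without TGF-β1 and 48.8 and 43.2 CPM with it. Among the leukocyte markers CD68 alone passed, at 105 and 99.8 CPM without TGF-β1 and 58.4 and 53.04 CPM with it, and PTPRC had no counts. For smooth muscle and pericytes 6 of 8 markers passed, and their sum was 440.6 and 393 CPM without TGF-β1 and 629 and 605 CPM with it, while MYH11 and DES were at most 0.0897 CPM in any of these libraries. For mesothelium 2 of 6 passed, CALB2 and MSLN, and none was called by edgeR (1 at an unadjusted p under 0.05, 0 with DESeq2). The part of these markers in the results was not tested. In a bulk sample, fewer cells of a type and less RNA per cell cannot be told apart.

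The 8 libraries held 18162738 to 22221927 counts, so 3 counts, used as the floor, equal 0.135 to 0.172 CPM. Treated and untreated libraries lay apart on the first principal component. Between replicates of a group the chi-square per degree of freedom was 6.47 to 11.3, more than counting error gives. Mitochondrial transcripts took 3.89 to 5.51% of the counts in the shMock libraries. MTHFD2 (ENSG00000065911, chr2:74198562-74217565, plus strand, GRCh38), the mitochondrial folate enzyme that the study targets in the other line, stood at 58.6 and 57.04 CPM without TGF-β1 and 256 and 257 CPM with it.

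The comparison of shMock cells with and without TGF-β1 gives the activation response against which the study sets its knockdown. At an adjusted p under 0.05, edgeR's quasi-likelihood test found 4776 changed genes (35.4% of those tested). Of these, 2333 were higher (17.3%) and 2443 lower (18.1%) with TGF-β1. Among 37 lists of genes, the shares called higher were largest for contractile genes (28 of 34), ATF4 factors and targets (19 of 25), SMAD-driven transcripts (24 of 32), chaperones of the endoplasmic reticulum (20 of 27) and export machinery (21 of 30). The shares called lower were largest for lipid genes (11 of 13), the list of NRF2 and redox genes (24 of 30), cytokines and chemokines (14 of 22) and antigen presentation (11 of 20). The lists were written with earlier results of these data known, so their shares describe the members chosen and no list was tested. Most changes were modest, with a median size of 0.56 on the log2 scale among called genes. At least a 2-fold change was called higher for 477 genes (3.54%) and lower for 539 genes (3.99%). At 4-fold the balance turned to 137 higher and 86 lower genes, and at 8-fold to 54 and 12. Both TGF-β1 libraries lay above both controls for 4312 genes (32%) and below them for 4860 genes (36%).

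The median log2 fold change over all tested genes was -0.02 with trimmed-mean scaling and -0.16 with library totals. On library totals 1570 genes were called higher and 3932 lower, so the choice of scaling moves the split. Genes of higher GC content tended to lower fold changes (Spearman -0.285 over 13416 genes, which are not independent replicates). With offsets that remove the trends with GC and length, 1952 of the 2333 higher genes and 1866 of the 2443 lower genes were called again.

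**Figure D1:**
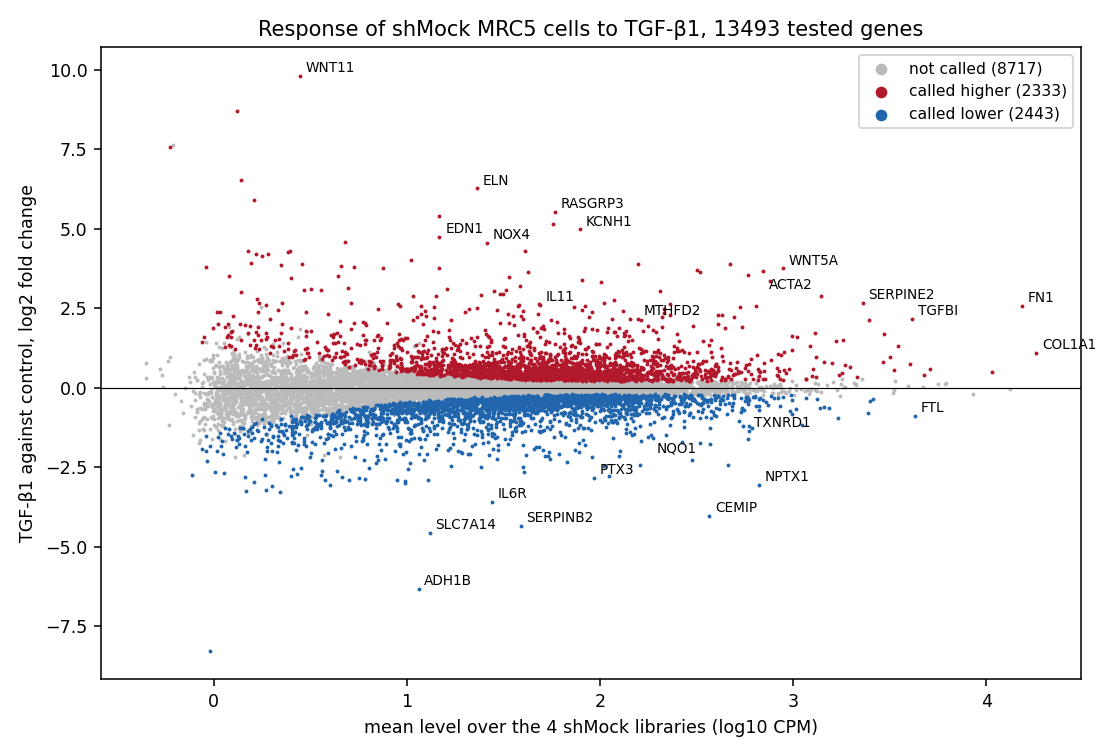
Each point is 1 of 13493 tested genes, with the mean level over the 4 shMock libraries (log10 CPM) on the x axis and the log2 fold change of TGF-β1 against control on the y axis. Red points are the 2333 genes called higher and blue points the 2443 called lower, and the genes with gains above 4 on the log2 scale include ELN, NOX4 and EDN1.

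A small number of abundant matrix genes carried much of the summed gain in CPM. Over the called genes the gains summed to 178120 CPM and the losses to -78931 CPM. The trimmed-mean factors were 1.004 and 1.037 for the controls and 0.9145 and 0.9418 with TGF-β1, so a treated library sums to more CPM. The excess of gains over losses therefore depends on the scaling and is no measure of added RNA. Of the gains 8 genes made up 31.7%, against 11.4% for the 8 largest losses. The 8 largest gains were COL1A1, FN1, TGFBI, COL1A2, SERPINE2, COL4A1, CALD1 and SPARC, of which CALD1 encodes an actin-binding protein and the other 7 encode secreted proteins. Fibronectin, FN1 (chr2:215360440-215436172, minus strand), stood at 4885 and 3907 CPM without TGF-β1 and 29155 and 23488 CPM with it, a log2 fold change of 2.58 (SE 0.12, edgeR adjusted p = 4.0e-10). COL1A1 (chr17:50183289-50201632, minus strand), the other chain of type I collagen, rose from 12491 and 10638 CPM to 26151 and 23390.0 CPM, and both treated libraries lay above both controls. The largest losses were CEMIP, NPTX1, FTL, FTH1, NEAT1, MYLK, GAPDH and COL6A1. The nuclear long non-coding RNA NEAT1 stood at 2296 and 2239 CPM without TGF-β1 and 887 and 1438 CPM with it. Its treated libraries stood further apart than its controls, and its locus overlaps 4 other annotated genes on the same strand.

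Of the 20 steepest increases, several began from levels near 0, while ACTA2, WNT5A and VCAN, given with their lists, stood above 50 CPM in both control libraries. WNT11, a secreted Wnt ligand, had no counts in either control library and 202 counts over both TGF-β1 libraries, at least 79.2-fold higher against 3 counts over the group. Elastin, ELN, went from 0.628 and 0.541 CPM to 46.7 and 44.4 CPM, a log2 fold change of 6.26 (SE 0.23, edgeR adjusted p = 2.3e-11). The exchange factor RASGRP3, which activates Ras-family proteins, went from 2.60 and 2.31 CPM to 113 and 116 CPM, and the LIM protein LMCD1 from 2.47 and 3.79 CPM to 114 and 107 CPM. EDN1, the precursor of the vasoconstrictor endothelin, went from 1.08 and 1.03 CPM to 29.3 and 27.6 CPM. NOX4, an NADPH oxidase that releases hydrogen peroxide, went from 1.93 and 2.31 CPM to 51.2 and 48.6 CPM. In each of these genes both treated libraries lay above both controls, which the rule for the 20 requires and which held for 32% of all tested genes. The gap between the controls was widest for LMCD1. The 20 highest also held ADAM12, a membrane metalloprotease (log2 fold change 3.76), AMIGO2, an adhesion protein (3.88), the activin subunit gene INHBE (3.76), PRR5L, which binds the kinase complex mTORC2 (4.02), and B3GALT1 (5.39), SYTL5 (4.58) and ATRNL1 (3.63). KCNH1, a potassium channel (4.98), CDH6, a cadherin (3.68), FZD8 (4.30) and the readthrough gene COMMD3-BMI1 (3.84) share bases with another gene on their strand, so their counts are uncertain.

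Among the 20 steepest decreases, ADH1B, an alcohol dehydrogenase of resting stroma, fell from 23.6 and 21.8 CPM to 0.160 and 0.401 CPM, though its locus overlaps another gene on its strand. CEMIP (chr15:80779343-80951776, plus strand), which drives the breakdown of hyaluronan, fell from 729 and 657 CPM to 46.9 and 37.6 CPM, a log2 fold change of -4.03 (SE 0.11, edgeR adjusted p = 1.1e-12). NPTX1, a pentraxin, fell from 1186 and 1197 CPM to 151 and 133 CPM and the interleukin-6 receptor IL6R from 51.7 and 49.6 CPM to 4.42 and 3.95 CPM. The other members included SOCS1, a brake on cytokine signalling (log2 fold change -2.92), PLXNC1, a semaphorin receptor (-2.91), the checkpoint ligand VSIR (-2.90) and 3 channel genes, KCNJ2 (-2.99), KCNF1 (-2.90) and GRIK4 (-2.87). SLC7A14 (-4.58), FER1L6 (-3.06), ELOVL2, a fatty acid elongase (-2.80), PLPPR4 (-2.79), PALMD (-2.63), LCE2A (-2.84) and SERPINB2, an inhibitor of plasminogen activators (-4.36), completed the group with PTGES, PTX3 and CA12, which are described below. SERPINB2 overlaps another gene on its strand. None of these 40 genes lost its call when any 1 shMock library was left out, and 17 of them overlap a gene on the opposite strand, whose reads cannot be told apart if strand was not used in counting.

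**Figure D2:**
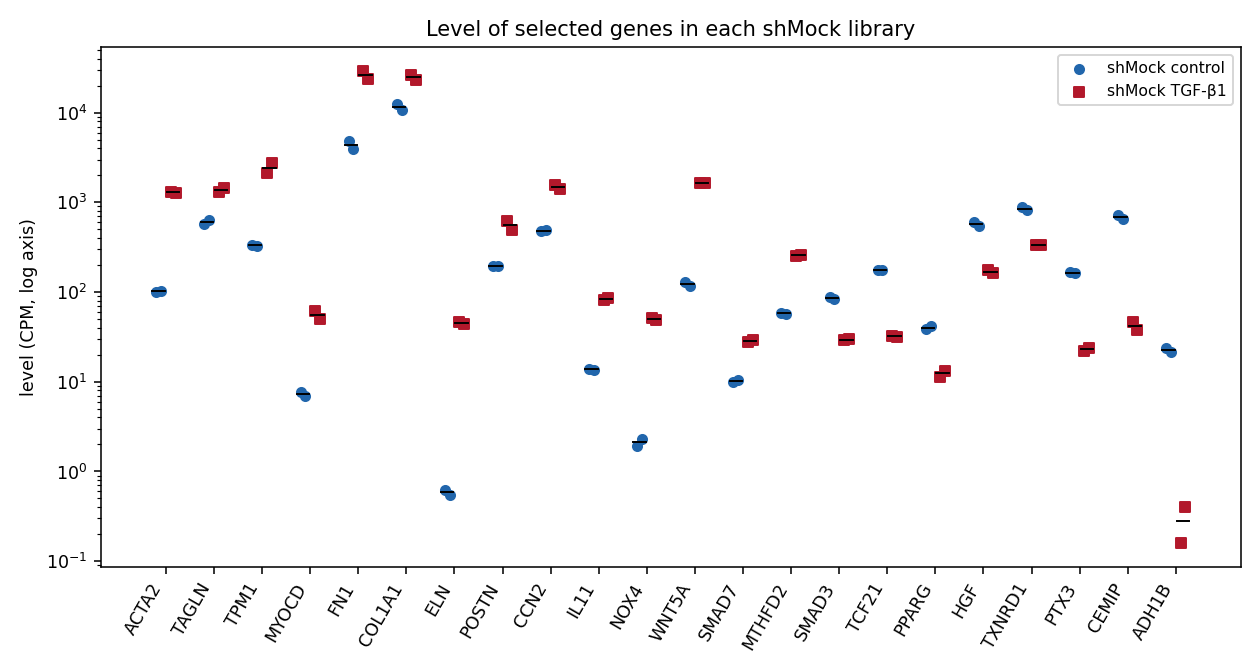
Level of 22 genes in each of the 4 shMock libraries (CPM, log axis), with blue circles for control, red squares for TGF-β1 and a black line at each group mean. The 2 libraries of a group lie close together at nearly every gene, with ADH1B under TGF-β1 (0.160 and 0.401 CPM) the widest pair, and no pair of groups shown overlaps.

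The signalling chain of TGF-β1 itself moved at several steps. Of 16 tested ligand, latency and receptor genes, 7 rose and 5 fell, with a median log2 fold change of 0.12 that turns to -0.02 on library totals. The ligand gene TGFB1 stood at 77.5 and 80.9 CPM without TGF-β1 and 183 and 159.8 CPM with it. The kinase receptor TGFBR1 rose from 40.3 and 38.9 CPM to 87.95 and 90.7 CPM, while the co-receptor TGFBR3 fell from 34.8 and 34.99 CPM to 11.3 and 8.88 CPM and the endothelial-type receptor ACVRL1 from 27.9 and 28.6 CPM to 15 and 15.8 CPM. LTBP2 and LTBP4, of the family named for binding latent TGF-β, went opposite ways. LTBP2 rose from 189 and 180.2 CPM to 1184 and 1016 CPM and LTBP4 fell from 732 and 672 CPM to 337 and 345 CPM. Binding of latent TGF-β by either protein was not measured. ITGAV, an integrin subunit that frees latent TGF-β, rose from 166 and 151 CPM to 365 and 342 CPM. ITGB8, another integrin subunit in this list, fell from 5.65 and 5.71 CPM to 1.81 and 2.86 CPM. Its log2 fold change was -1.285, and -0.983 without shMock TGF-β1 replicate 1, and its call was not kept in every fit.

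Downstream, 7 of 17 SMADs and regulators rose and 5 fell. The inhibitory SMAD7 rose from 9.82 and 10.4 CPM to 27.5 and 29.3 CPM, the receptor inhibitor PMEPA1 from 12.9 and 11.4 CPM to 40.8 and 37.2 CPM and the SMAD co-repressor SKIL from 27.9 and 26.3 CPM to 64.96 and 63.3 CPM. SMAD3, the signal carrier, fell from 89.1 and 83.6 CPM to 29.05 and 29.6 CPM, and the decoy receptor BAMBI from 5.34 and 4.97 CPM to 1.49 and 0.745 CPM. The BMP-pathway SMAD9 fell from 26.1 and 27.3 CPM to 12.9 and 14.95 CPM. Without shMock control replicate 1 or without shMock TGF-β1 replicate 2, 3 members were called lower.

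Transcripts listed as SMAD targets rose in 24 of 32 and fell in 3, with a median log2 fold change of 1.19 against -0.02 over all genes. These members were chosen with earlier results of these data known, and the list was not tested. On library totals 6 members were called lower. The cytokine IL11 rose from 13.95 and 13.6 CPM to 81.2 and 86.3 CPM, the matricellular CCN2 from 479.5 and 491 CPM to 1572 and 1394 CPM and the metalloprotease ADAM19 from 50.1 and 48.7 CPM to 618 and 603 CPM. The 3 that fell were LIF, a cytokine of the interleukin-6 family, from 97.9 and 101 CPM to 20 and 26.9 CPM, the transcription factor SNAI2 from 186 and 170.1 CPM to 92.6 and 89.01 CPM, and SOX9, with a log2 fold change of -0.29. The call of SOX9 was lost in 3 of the 4 fits that leave out a shMock library (adjusted p 0.0614 to 0.248), and its values were 62.7 and 58.6 CPM without TGF-β1 and 53.4 and 45.9 CPM with it.

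Activin and BMP genes split. Of 21 tested, 11 rose (52.4%) and 4 fell (19%), against 17.3% and 18.1% of all tested genes. INHBA, the subunit of activin A, stood at 67.8 and 61.9 CPM without TGF-β1 and 363 and 363 CPM with it, and the activin antagonist FSTL3 rose from 83.8 and 89.2 CPM to 188 and 187 CPM. The 4 that fell were ligands of the BMP branch: BMP2 from 49.8 and 44.6 CPM to 12.7 and 11.4 CPM, GDF5 from 12.96 and 13.9 CPM to 3.88 and 5.21 CPM, GDF6 from 37.3 and 38.05 CPM to 15.8 and 14.03 CPM and BMP4 from 55.3 and 56.6 CPM to 36.3 and 32.4 CPM. ID3 and ID1, inhibitors of DNA binding that answer to BMP signals, rose from 10.8 and 7.38 CPM to 54.8 and 43.5 CPM and from 2.06 and 2.07 CPM to 5.27 and 7.22 CPM.

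Contractile genes rose broadly. Of 34 tested, 28 rose and 1 fell, with a median log2 fold change of 0.56. ACTA2 (ENSG00000107796, chr10:88935074-88991339, minus strand), the smooth-muscle actin that defines the myofibroblast, stood at 101 and 104 CPM without TGF-β1 and 1312 and 1275 CPM with it, 12.6-fold higher (3.66 on the log2 scale, SE 0.09, edgeR adjusted p = 3.2e-13). Per kilobase of exon it went from 34.5 to 435 CPM. TAGLN, an actin crosslinker, rose from 575 and 629.5 CPM to 1294 and 1461 CPM. The tropomyosin TPM1 rose from 332 and 330.4 CPM to 2131 and 2755 CPM, the LIM protein CSRP2 from 26.9 and 34.2 CPM to 209.7 and 199 CPM and the actin-binding CALD1 from 949.8 and 912 CPM to 4073 and 3995 CPM. MYLK, the kinase that switches on smooth-muscle myosin, was the member that fell, from 1649 and 1432 CPM to 696 and 659.8 CPM. On library totals 3 members were called lower, and without shMock TGF-β1 replicate 1, 2 were.

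SRF binds the CArG box in contractile promoters and needs the cofactors MYOCD, MRTFA and MRTFB. Of 19 genes in this list, 12 rose and 2 fell. MYOCD, the cofactor of smooth and heart muscle, rose from 7.62 and 6.89 CPM to 61.5 and 50.1 CPM. MRTFA, the actin-sensing cofactor, rose from 54.5 and 49.8 CPM to 113 and 104 CPM, and the LIM cofactor FHL2 from 79.4 and 75.3 CPM to 189 and 190.2 CPM. Its relative FHL1 fell from 164 and 164 CPM to 85.3 and 86.7 CPM. The other member that fell was CRIP2 (log2 fold change -0.38), whose call was lost without shMock control replicate 1, shMock control replicate 2 or shMock TGF-β1 replicate 2 (adjusted p 0.0603 to 0.11). With GC and length offsets its log2 fold change was -0.12 (adjusted p 0.432).

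The CArG box was looked for in the 250 bases before each start site that RefSeq gives (GRCh38.p14), where the same letters read on either strand. It was present before 407 of 35116 start sites (1.16%), and a gene can have several. With any start site counted, 53 of 1884 genes called higher (2.81%), 21 of 1907 called lower (1.10%) and 83 of 6510 not called (1.28%) had a box. With start sites within 1000 bases of the 5′ end of the gene in GENCODE, a limit chosen after seeing the data, these were 32 of 1632 (1.96%), 11 of 1626 (0.677%) and 59 of 5692 (1.04%). With any start site counted, 8 of 32 contractile genes and 4 of 16 in the list of SRF regulators had a box. Of these, MYLK and FHL1 fell and the others rose. By the narrower count 4 of 23 contractile genes had a box, namely ACTG2, CNN2, TPM4 and FLNA. In the list of SRF regulators 2 of 14 had one, FHL2 and SRF. All 6 rose, but the limit leaves out MYLK and FHL1, and most tested members of both lists rose (28 of 34 and 12 of 19). Boxes of ACTG1, ACTN1, SMTN, LPP, MYLK and FHL1 lay before start sites further inside the gene, 263783 bases inside for MYLK and 50345 for FHL1, and counts per gene do not tell transcripts of such sites apart. A match is a description of the letters and shows no binding. The 60 bases around the box are shown for 4 genes with a box near the 5′ end, to let the element be seen in place, with the box in capitals, 5′ to 3′ on the strand of the gene.
ACTG2 (chr2:73892891-73892950, plus strand): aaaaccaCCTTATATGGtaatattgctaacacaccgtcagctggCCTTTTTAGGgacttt
CNN2 (chr19:1026494-1026553, plus strand): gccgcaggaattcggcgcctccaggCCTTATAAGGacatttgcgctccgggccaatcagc
FLNA (chrX:154374694-154374753, minus strand): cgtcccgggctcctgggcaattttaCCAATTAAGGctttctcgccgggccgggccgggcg
SRF (chr6:43171209-43171268, plus strand): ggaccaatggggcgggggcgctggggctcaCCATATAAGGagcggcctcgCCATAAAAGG
ACTG2, the smooth-muscle gamma actin, holds 2 boxes and rose from 67.8 and 62.6 CPM to 210.1 and 200.4 CPM. SRF also holds 2 and encodes the factor itself, which rose from 56.5 and 53.9 CPM to 93.8 and 92.4 CPM. CNN2 encodes a calponin (log2 fold change 0.65) and FLNA an actin crosslinker (0.81). These 4 genes were picked for display after their values were seen.

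Of 24 integrin and adhesion genes, 13 rose (54.2%) and 4 fell (16.7%), against 17.3% and 18.1% of all tested genes. ITGA1, a collagen-binding subunit, stood at 138 and 134 CPM without TGF-β1 and 1421 and 1337 CPM with it, and ITGB3, the partner of ITGAV, at 30.9 and 25.8 CPM without TGF-β1 and 189.6 and 172 CPM with it. Both share bases with another gene on their strand, so their counts are uncertain. The adaptor LIMS1, which joins integrins to actin through ILK, rose from 75.8 and 71.8 CPM to 347 and 343 CPM. ITGA8, a subunit of a fibronectin receptor, fell from 68.96 and 64.8 CPM to 16.2 and 14.8 CPM, and the laminin receptor subunit ITGA6 from 19.95 and 18.4 CPM to 11.1 and 12.7 CPM. The count of higher members was 8 without shMock control replicate 1, without shMock control replicate 2, without shMock TGF-β1 replicate 1 and on library totals, where 8 were called lower.

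Collagens did not move as a block. Of 44 chains 28 passed the filter, 14 rose and 9 fell, with a median log2 fold change of 0.32. COL4A1, a basement membrane chain, stood at 1506 and 1320.0 CPM without TGF-β1 and 4725 and 4317 CPM with it, while COL4A5 and COL4A6, chains of the same type, fell from 147 and 131 CPM to 65.7 and 66.04 CPM and from 3.54 and 3.20 CPM to 1.17 and 1.49 CPM. The call of COL4A6 was lost without shMock TGF-β1 replicate 1 (adjusted p 0.0775). COL5A1, which starts fibrils of type I collagen, rose from 657 and 542 CPM to 2005 and 1965 CPM, and COL8A1 from 57.8 and 51.97 CPM to 193 and 176 CPM. COL10A1, a chain of growth cartilage, rose from 0.224 and 0.148 CPM to 3.56 and 2.29 CPM. COL6A1, a microfibril chain, fell from 1958 and 1797 CPM to 1223 and 1166 CPM, while COL6A3 of the same microfibril rose from 4605 and 3664 CPM to 6463 and 5822 CPM. COL13A1, a membrane collagen, fell from 15.4 and 15.8 CPM to 7.29 and 6.93 CPM. COL3A1, the partner of type I collagen in scars, was not called, at 3600.0 and 3191 CPM without TGF-β1 and 3283 and 3219 CPM with it, and is named after its values were seen.

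Of 36 genes that fold, process and crosslink collagen, 23 rose and 4 fell, with a median log2 fold change of 0.57. PLOD2, the lysyl hydroxylase that sets the crosslinks of scar collagen, stood at 132 and 117 CPM without TGF-β1 and 501 and 458 CPM with it. CREB3L2, a membrane-bound factor that drives the export of collagen, rose from 85.3 and 70.9 CPM to 408 and 356 CPM, the prolyl hydroxylase subunit P4HA3 from 3.68 and 4.97 CPM to 13.9 and 13.9 CPM, and the procollagen protease ADAMTS14 from 13.6 and 12.4 CPM to 29.7 and 34.4 CPM. The members that fell were TGM2, P3H2, PCOLCE and CRTAP, with log2 fold changes between -0.51 and -0.23. None of these 4 kept its call throughout: 1 was called lower without shMock control replicate 1, 0 without shMock control replicate 2, 1 without shMock TGF-β1 replicate 1, 0 without shMock TGF-β1 replicate 2, and 2 without shMTHFD2 control replicate 1, shMTHFD2 control replicate 2 or shMTHFD2 TGF-β1 replicate 1. With GC and length offsets, or with no filter beyond 1 count, 2 were called lower. On library totals 10 were called lower.

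Among 35 matrix glycoproteins and elastic-fibre genes, 14 rose and 10 fell. Beside ELN and FN1, the tenascin TNC stood at 159.6 and 151 CPM without TGF-β1 and 985 and 829 CPM with it and the microfibril protein MFAP2 at 46.1 and 39.2 CPM without TGF-β1 and 188 and 190.0 CPM with it. POSTN, a matricellular protein of scars, rose from 198 and 194 CPM to 616 and 494 CPM, and SPARC, which binds collagen outside the cell, from 1984 and 2023 CPM to 5120.0 and 4892 CPM. TNXB, a tenascin that orders collagen fibrils, fell from 4.66 and 3.79 CPM to 1.12 and 1.317 CPM, EFEMP1 from 281 and 272 CPM to 145 and 139 CPM, the laminin chain LAMA5 from 104 and 80.4 CPM to 53.7 and 53.4 CPM and nidogen NID2 from 145 and 128 CPM to 85.3 and 81.8 CPM. Genes of basement membranes thus stood on both sides, with COL4A1 higher and LAMA5 and NID2 lower.

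Hyaluronan and proteoglycan genes were divided, with 8 of 21 higher and 7 lower, and a median log2 fold change of 0.13 that turns to -0.01 on library totals. The synthase HAS2 rose from 0.673 and 0.837 CPM to 6.92 and 5.90 CPM and the hyaluronan-binding VCAN (versican) from 63.6 and 56.6 CPM to 978 and 796 CPM. XYLT1, which starts the sugar chains of proteoglycans, rose from 6.19 and 6.15 CPM to 50.2 and 50.4 CPM. CEMIP2, a membrane relative of CEMIP, rose from 44.4 and 43.3 CPM to 385 and 341 CPM, opposite to CEMIP. The cell-surface proteoglycans SDC4, GPC1 and SDC1 fell, with log2 fold changes of -0.86, -0.74 and -0.61.

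Of 33 matrix proteases and inhibitors, 15 rose (45.5%) and 8 fell (24.2%), against 17.3% and 18.1% of all tested genes. The plasminogen system changed on both sides: the inhibitor SERPINE2 rose from 608 and 639.9 CPM to 4115 and 3805 CPM, while the activators PLAU and PLAT fell, from 204 and 209 CPM to 78.5 and 77.1 CPM and from 59.6 and 66.05 CPM to 23.6 and 26.1 CPM. SERPINB2, an inhibitor given above, fell from 72.5 and 75.6 CPM to 4.1 and 3.09 CPM, opposite to SERPINE2. ADAMTS1, which cleaves versican, fell from 803 and 744 CPM to 149 and 141 CPM, and ADAMTS15 from 6.28 and 5.71 CPM to 1.01 and 1.49 CPM. ADAMTS6 rose from 7.08 and 6.84 CPM to 56.1 and 60.3 CPM.

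**Figure D3:**
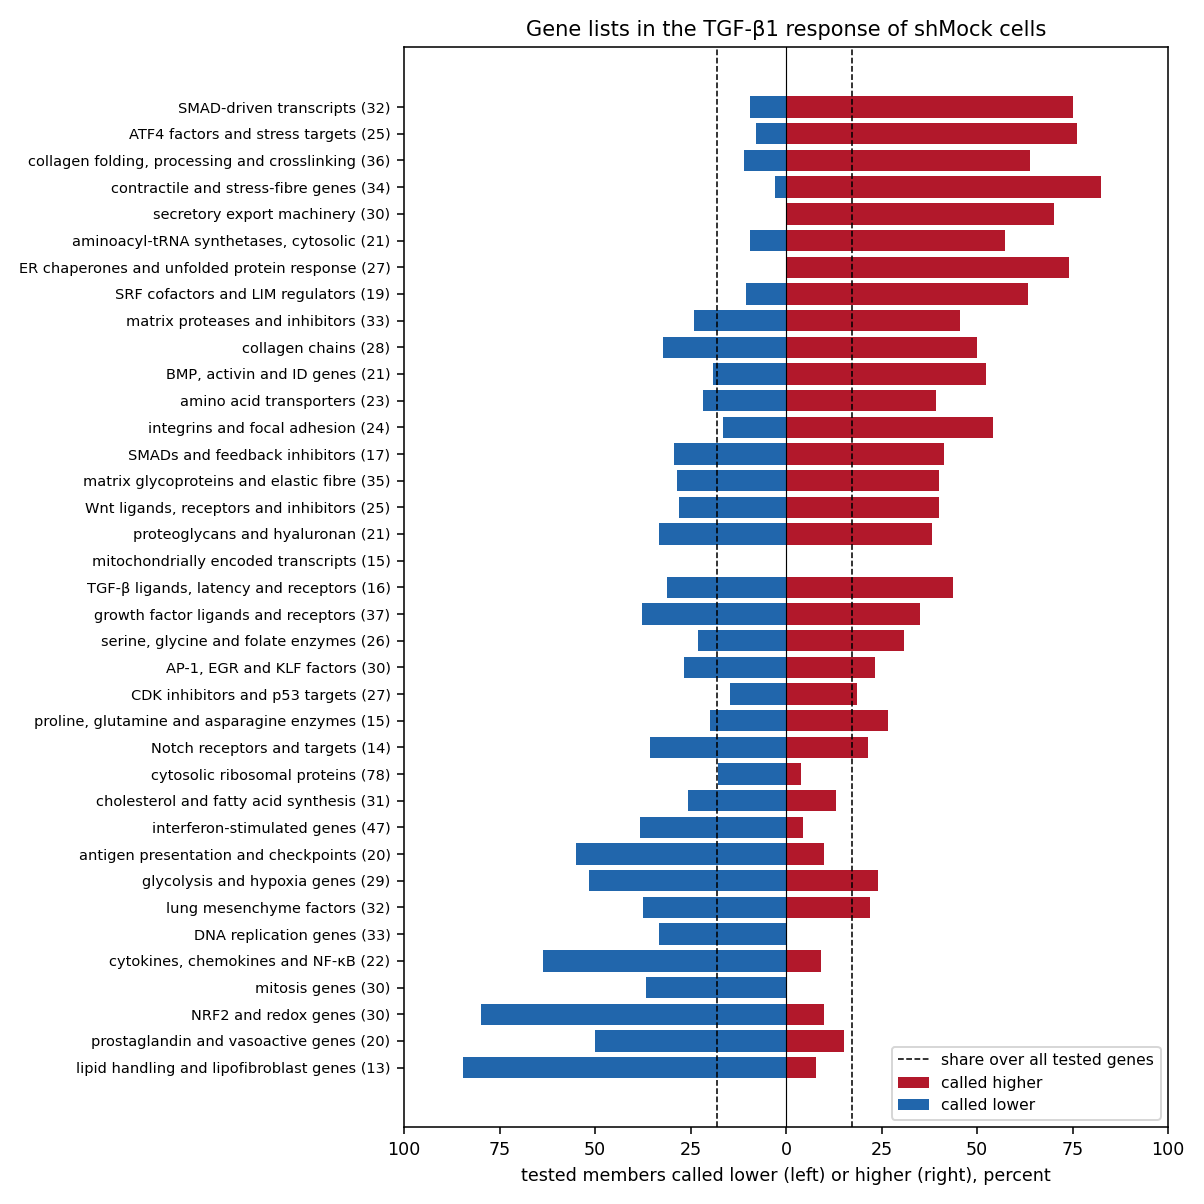
For each of 37 gene lists, the share of tested members called higher (red, right) and lower (blue, left), with the number of tested members in brackets and lists ordered by their median log2 fold change. Dashed lines mark the shares over all tested genes, 17.3% higher and 18.1% lower. Contractile genes reach 28 of 34 higher and NRF2 genes 24 of 30 lower.

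Genes of the machinery that folds and exports secreted proteins rose in most cases. Of 27 chaperone and unfolded-protein-response genes 20 rose and 0 fell (1 on library totals), and of 30 export genes 21 rose and 0 fell. At an unadjusted p under 0.05 and with DESeq2 the count of lower members was also 0 in both lists. The steps were small, with medians of 0.42 and 0.48 on the log2 scale. XBP1, a transcription factor of the unfolded protein response, stood at 62.01 and 63.7 CPM without TGF-β1 and 165 and 161 CPM with it, its activating nuclease ERN1 at 7.35 and 8.17 CPM without TGF-β1 and 17.7 and 14.4 CPM with it, and the chaperone HYOU1 at 83.9 and 73.7 CPM without TGF-β1 and 159.6 and 160.4 CPM with it. SEC24D, a coat protein of export vesicles, rose from 146 and 139 CPM to 303 and 274 CPM, and KDELR3, which returns chaperones to the endoplasmic reticulum, from 73.3 and 80.96 CPM to 156 and 137 CPM.

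Of 26 serine, glycine and folate genes, 8 rose (30.8%) and 6 fell (23.1%), against 17.3% and 18.1% of all tested genes. The median log2 fold change of -0.01 was near that of all genes. MTHFD2 rose 4.43-fold, a log2 fold change of 2.15 with an SE of 0.09 (edgeR adjusted p = 9.5e-11). The other mitochondrial folate enzyme named, ALDH1L2, rose from 77.3 and 71.5 CPM to 273 and 243 CPM. PHGDH and PSAT1, which make serine from a glycolytic intermediate, rose from 52.7 and 57.3 CPM to 109 and 119 CPM and from 49.05 and 49.4 CPM to 168 and 166 CPM. The cytosolic SHMT1 fell from 14.98 and 13.8 CPM to 7.61 and 8.25 CPM, thymidylate synthase TYMS from 41.7 and 50.9 CPM to 29.6 and 21.2 CPM and the folate carrier SLC19A1 from 11.6 and 10.5 CPM to 6.70 and 6.24 CPM. SHMT2, the mitochondrial counterpart of SHMT1, rose from 139 and 135 CPM to 240.3 and 254 CPM and is named after its values were seen.

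For proline, 4 of 15 genes that also cover glutamine and asparagine rose (26.7%) and 3 fell (20%), against 17.3% and 18.1% of all tested genes. ALDH18A1 and PYCR1, which turn glutamate into proline, rose from 43.4 and 39.2 CPM to 115 and 111 CPM and from 31.7 and 35.3 CPM to 107 and 101 CPM, and the asparagine synthetase ASNS from 33.3 and 25.5 CPM to 148 and 155 CPM. The proline-degrading ALDH4A1 fell from 14.4 and 17.03 CPM to 9.90 and 9.16 CPM and the dipeptidase PEPD, which frees proline from collagen fragments, from 78.5 and 77.3 CPM to 51.4 and 55.05 CPM, while GLUL, glutamine synthetase, fell by little (log2 fold change -0.21). Without shMock control replicate 2, 1 member was called lower, and on library totals 7 were. The call of ALDH4A1 was lost without shMock control replicate 2 (adjusted p 0.0592), and that of GLUL in 3 fits without a shMock library (adjusted p 0.141 to 0.223).

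Of 23 amino acid transporters 9 rose (39.1%) and 5 fell (21.7%), against 17.3% and 18.1% of all tested genes. SLC38A5, a carrier of glutamine and glycine, stood at 10.4 and 11.8 CPM without TGF-β1 and 55.6 and 54.8 CPM with it, the serine carrier SLC1A4 at 5.07 and 4.53 CPM without TGF-β1 and 20.3 and 18.6 CPM with it, and the arginine carrier SLC7A1 at 41.8 and 37.4 CPM without TGF-β1 and 149.6 and 135 CPM with it. SLC7A5, the leucine carrier, rose from 59.6 and 49.96 CPM to 141 and 142 CPM. SLC7A11, which imports cystine for glutathione, fell from 330.2 and 283 CPM to 149.5 and 167 CPM, and the arginine carrier SLC7A2 from 29.6 and 27.4 CPM to 13.9 and 13.98 CPM. Without shMock control replicate 1, 3 members were called lower.

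ATF4 is the transcription factor that answers amino acid shortage and stress of the endoplasmic reticulum. Its factors and targets rose in 19 of 25, and 2 fell, with a median log2 fold change of 0.72. BCAT1, which starts the breakdown of branched amino acids, stood at 139 and 138 CPM without TGF-β1 and 675 and 674 CPM with it. The transaminase GPT2 rose from 21.03 and 22.5 CPM to 71.1 and 74.1 CPM, mitochondrial PCK2 from 38.9 and 38.2 CPM to 108 and 124 CPM and the cystathionine lyase CTH from 3.32 and 3.05 CPM to 8.57 and 9.57 CPM. The 2 that fell, ATF5 (log2 fold change -0.66) and CEBPB (-0.54), are themselves transcription factors, and with GC and length offsets 1 was called lower, where the adjusted p of CEBPB was 0.0875. On library totals 4 were called lower. ATF4 mRNA, named after its values were seen, stood at 525 and 529 CPM without TGF-β1 and 812 and 778 CPM with it.

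The cytosolic tRNA synthetases moved with this list, 12 of 21 higher and 2 lower. GARS1, the glycine enzyme, rose from 204 and 195 CPM to 451 and 419 CPM, and EPRS1, which charges glutamate and proline, from 127 and 128 CPM to 260.1 and 239 CPM. WARS1, the tryptophan enzyme, was 1 of the 2 called lower (log2 fold change -0.21), and the list had 0 or 1 lower calls in each fit that leaves out a library and 0 with median-of-ratios factors.

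**Figure D4:**
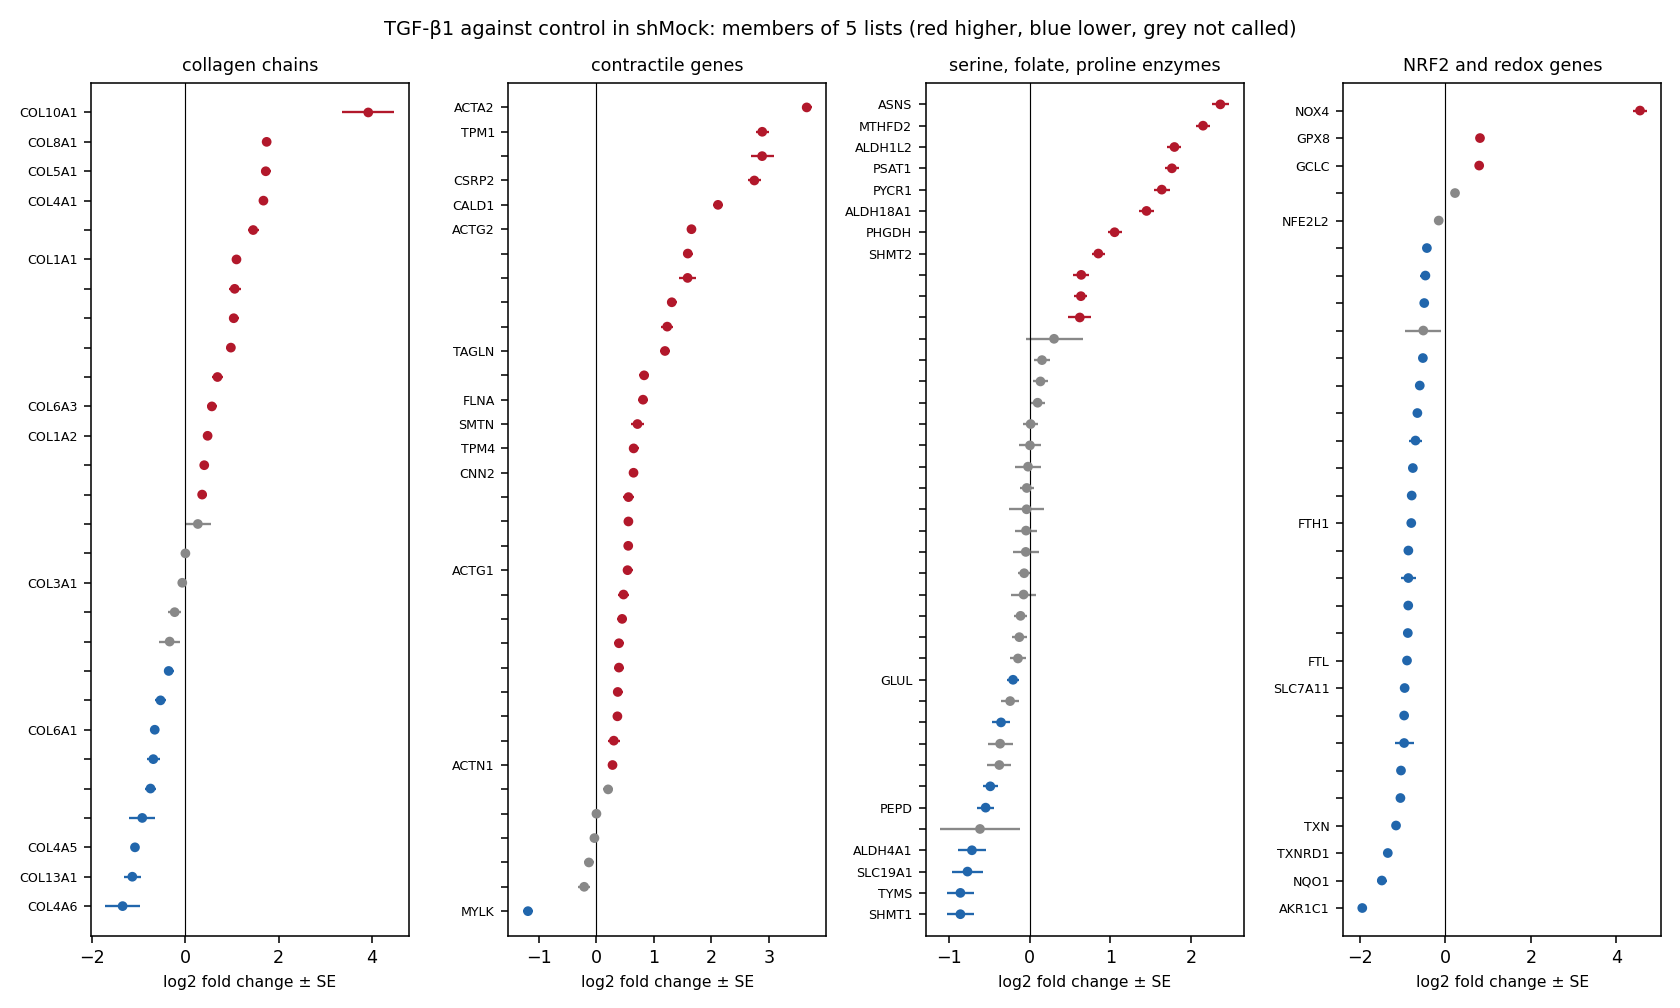
Log2 fold change of TGF-β1 against control in shMock cells, with its SE as a bar, for the members of 5 lists, labelled where the text names them and with 2 members not shown, with red for called higher, blue for called lower and grey for not called. Collagen chains and the enzymes of serine, folate and proline lie on both sides of 0, contractile genes lie mostly to the right with MYLK alone called lower, and the NRF2 genes lie mostly to the left with NOX4, GPX8 and GCLC called higher.

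Redox genes fell. NRF2, encoded by NFE2L2, is the transcription factor that drives antioxidant enzymes. Of 30 tested members of this list, 24 fell and 3 rose, with a median log2 fold change of -0.80. The quinone reductase NQO1 stood at 266 and 274 CPM without TGF-β1 and 102 and 90.2 CPM with it, thioredoxin reductase TXNRD1 at 878 and 812 CPM without TGF-β1 and 331 and 332 CPM with it and thioredoxin TXN at 241 and 259 CPM without TGF-β1 and 107 and 117 CPM with it. The aldo-keto reductase AKR1C1 fell from 87.6 and 73.4 CPM to 20.3 and 21.4 CPM, though it has near-identical copies among which reads may have been split. The ferritin chains FTL and FTH1, which store iron, fell from 5532 and 5542 CPM to 3078 and 2853 CPM and from 3085 and 3126 CPM to 1887 and 1679 CPM. The members that rose were NOX4, the peroxidase GPX8 (log2 fold change 0.81) and GCLC, which makes the first step of glutathione (0.79). NFE2L2 mRNA was not called, at 249.8 and 235 CPM without TGF-β1 and 224 and 211 CPM with it, and is named after its values were seen.

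Lipid genes gave the highest share of decreases among the 37 lists, 11 of the 13 that passed the filter out of 25, with a median log2 fold change of -1.11. PPARG, the factor of fat-storing fibroblasts, stood at 38.7 and 41.7 CPM without TGF-β1 and 11.4 and 13.4 CPM with it, and CEBPD, another adipogenic factor, at 73.6 and 75.4 CPM without TGF-β1 and 32.4 and 31.2 CPM with it. The fatty acid carrier CD36 fell from 2.02 and 1.58 CPM to 0.213 and 0.630 CPM, a call lost without shMock TGF-β1 replicate 1 (adjusted p 0.0681). ABCA1, which exports cholesterol, was the member that rose, from 69.9 and 58.2 CPM to 146 and 163 CPM. Sterol and fatty acid synthesis moved less, with 4 of 31 higher (12.9%) and 8 lower (25.8%), against 17.3% and 18.1% of all tested genes. LSS and MVD, enzymes of the sterol pathway, fell from 747 and 788 CPM to 507 and 523 CPM and from 389 and 407 CPM to 272 and 292 CPM, and the desaturase SCD rose from 1902 and 1865 CPM to 2494 and 2301 CPM. The count of higher members was 2, 1 and 2 without shMock control replicate 1, shMock control replicate 2 and shMock TGF-β1 replicate 1, and 1 on library totals. With GC and length offsets 2 were higher. The count of lower members was 5 without shMock control replicate 1 or without shMock TGF-β1 replicate 2, and 17 on library totals.

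In glycolysis and hypoxia genes 15 of 29 fell (51.7%) and 7 rose (24.1%), against 18.1% and 17.3% of all tested genes. The pyruvate kinase PKM fell from 1717 and 1782 CPM to 1212 and 1087 CPM and GAPDH from 2766 and 2963 CPM to 2213 and 2022 CPM, while PFKFB3 and PFKFB4, which make the activator of phosphofructokinase, rose from 123 and 127 CPM to 265 and 275 CPM and from 47.3 and 49.7 CPM to 88 and 96.98 CPM. The hypoxia factors parted, HIF1A rising from 261 and 255 CPM to 385 and 339 CPM and EPAS1 falling from 602 and 554 CPM to 329 and 325 CPM. CA12, a carbonic anhydrase, fell from 69.3 and 69.4 CPM to 10.3 and 11.7 CPM. With GC and length offsets and a replicate block the adjusted p of GAPDH was 0.0552. Without shMock control replicate 1, without shMock control replicate 2 and on library totals 4 members were called higher.

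Growth factor and receptor genes went both ways, 13 of 37 higher and 14 lower. IGF1, an insulin-like growth factor, had 2 counts over the control libraries and 115 with TGF-β1, a ratio of 67.6 (95% exact binomial interval 18.3 to 565, counting error only). IGFBP3, which binds it, stood at 93.9 and 89.3 CPM without TGF-β1 and 1075 and 1082 CPM with it. The endothelin receptors went opposite ways, with EDNRB rising from 22.5 and 21.8 CPM to 73.6 and 87.01 CPM and EDNRA falling from 21.2 and 21.3 CPM to 9.15 and 8.65 CPM. HGF, the growth factor that fibroblasts supply to epithelium, fell from 608 and 541 CPM to 176 and 162 CPM, FGF9 from 4.35 and 3.69 CPM to 1.38 and 1.55 CPM and the vasodilator peptide ADM from 260.3 and 266 CPM to 85.1 and 94.7 CPM.

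Of 25 Wnt genes 10 rose and 7 fell. WNT5A, the ligand of β-catenin-independent signalling, stood at 128 and 117 CPM without TGF-β1 and 1644 and 1652 CPM with it, 13.5-fold higher. The receptor FZD8 rose from 3.90 and 4.04 CPM to 75.6 and 80.6 CPM and the secreted antagonist DKK1 from 34.98 and 36.9 CPM to 136 and 125 CPM. AXIN2 and LEF1, transcripts that β-catenin induces, fell from 6.77 and 5.86 CPM to 2.98 and 1.60 CPM and from 22.1 and 19.9 CPM to 7.87 and 7.33 CPM. The antagonist SFRP1 fell from 118 and 118 CPM to 31.5 and 28.8 CPM and the ligand WNT16 from 35.7 and 41.98 CPM to 16.8 and 11.2 CPM. Of 14 Notch genes 3 rose (21.4%) and 5 fell (35.7%), against 17.3% and 18.1% of all tested genes. Fewer fell without shMock control replicate 1. The ligand JAG1 fell from 40.7 and 31.4 CPM to 15.9 and 14.7 CPM and the ligand DLL4 from 28.5 and 31.8 CPM to 16.3 and 18.7 CPM, while MAML2, a coactivator of Notch, rose from 41.9 and 38.8 CPM to 93.05 and 85.8 CPM.

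Prostaglandin and vasoactive genes had a median log2 fold change of -1.004, with 10 of 20 lower and 3 higher. Prostaglandin E2 restrains fibroblasts in the lung, and several genes along its route fell, namely the phospholipase PLA2G4A from 22.9 and 21.7 CPM to 5.85 and 5.78 CPM, the cyclooxygenase PTGS2 from 17.7 and 19.3 CPM to 5.11 and 4.98 CPM, the synthase PTGES from 18.7 and 15.6 CPM to 2.18 and 2.29 CPM and the receptor PTGER2 from 111 and 115 CPM to 22.1 and 22.4 CPM. PTGS1, the other cyclooxygenase, was not called, at 804 and 795 CPM without TGF-β1 and 886 and 776 CPM with it. Both cyclooxygenases are named after their values were seen. The receptor PTGER4 rose from 10.8 and 8.02 CPM to 20.5 and 18.6 CPM and the adrenomedullin relative ADM2 from 5.92 and 4.28 CPM to 14.7 and 15.2 CPM. The adrenergic receptor ADRA1B fell from 6.41 and 6.10 CPM to 1.01 and 1.03 CPM.

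Inflammatory genes were mostly lower. Of 43 cytokine, chemokine and NF-κB genes 22 passed the filter, 14 fell and 2 rose. The pentraxin PTX3 stood at 166 and 162 CPM without TGF-β1 and 22.2 and 23.7 CPM with it, the interleukin-1 receptor IL1R1 at 129 and 121 CPM without TGF-β1 and 31.4 and 29.5 CPM with it, and the chemokine CCL2 at 4.26 and 2.46 CPM without TGF-β1 and 0.372 and 0.344 CPM with it. IL11 rose, as given above, and IL6 stood at 2.69 and 3.002 CPM without TGF-β1 and 5.43 and 5.61 CPM with it. The call of IL6 was lost without any 1 of the 4 shMock libraries (adjusted p 0.0985 to 0.156) and on library totals, which leaves 1 higher member.

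Interferon-stimulated genes fell in 18 of 47 and rose in 2, with a median log2 fold change of -0.20. The count of lower members changed with the shMock library left out, most with the TGF-β1 replicates, and was 24 on library totals. ISG15, a ubiquitin-like protein, fell from 376 and 364 CPM to 195 and 233 CPM, DHX58, an RNA sensor, from 52.6 and 50.05 CPM to 28.8 and 34.8 CPM, and HERC5, the ligase for ISG15, from 31.8 and 33.6 CPM to 18.8 and 22.05 CPM. GBP1, a GTPase, rose from 132 and 124 CPM to 221 and 245 CPM, and SAMD9, which restricts viruses, from 251 and 225 CPM to 381 and 357 CPM. Of 20 antigen presentation and checkpoint genes 11 fell and 2 rose, and without shMock control replicate 2, 7 fell. The immunoproteasome subunit PSMB9 fell from 27.8 and 28.8 CPM to 10.3 and 15.5 CPM, HLA-E, a ligand of natural killer cells, from 673 and 687 CPM to 397 and 399.9 CPM, the receptor TNFRSF14 from 23.7 and 24.2 CPM to 9.42 and 12.4 CPM and the ectonucleotidase NT5E from 143 and 143 CPM to 79.8 and 75.95 CPM. PDCD1LG2, a ligand of the receptor PD-1, rose from 14.4 and 13.6 CPM to 22.4 and 24.2 CPM. CD274, the other such ligand, stood at 6.55 and 8.27 CPM without TGF-β1 and 10.2 and 12.3 CPM with it, and its call was lost without any 1 of the 4 shMock libraries (adjusted p 0.0556 to 0.255), on library totals (adjusted p 0.114) and with GC and length offsets (adjusted p 0.0716).

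Transcription factors of lung mesenchyme fell in 12 of 32 (37.5%) and rose in 7 (21.9%), against 18.1% and 17.3% of all tested genes. TCF21, a factor of resting fibroblasts, stood at 178 and 177 CPM without TGF-β1 and 32.7 and 31.3 CPM with it, 5.54-fold lower. OSR1 fell from 39.2 and 37.3 CPM to 15.1 and 16.8 CPM and TWIST1 from 23.05 and 20.4 CPM to 12.2 and 10.8 CPM. The Hedgehog factor GLI1 rose from 3.77 and 3.30 CPM to 9.79 and 10.1 CPM, and the factors SNAI1 and ZEB1, known from the epithelial to mesenchymal transition, from 5.47 and 4.23 CPM to 13.9 and 11.7 CPM and from 131 and 122 CPM to 258 and 238 CPM, opposite to SNAI2. Of 30 immediate early and AP-1 genes 7 rose (23.3%) and 8 fell (26.7%), against 17.3% and 18.1% of all tested genes. EGR2 rose from 1.03 and 0.344 CPM to 8.03 and 8.08 CPM and JUNB from 42.5 and 45.1 CPM to 88.2 and 86.1 CPM. FOSL2, a partner of JUN proteins, fell from 99.2 and 92.6 CPM to 43.3 and 40.9 CPM, and DUSP5, a phosphatase of nuclear ERK, from 25.6 and 27.1 CPM to 8.99 and 8.48 CPM.

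Of 30 mitosis genes 11 fell and 0 rose, and of 33 replication genes 11 fell and 0 rose, with median log2 fold changes of -0.53 and -0.39. TPX2, a spindle protein, stood at 23.4 and 24.1 CPM without TGF-β1 and 13.8 and 11.6 CPM with it, ANLN, a protein of the cleavage furrow, at 30.9 and 33.8 CPM without TGF-β1 and 19.6 and 15.4 CPM with it, and the ribonucleotide reductase subunit RRM2 at 21.6 and 25.6 CPM without TGF-β1 and 12.2 and 9.16 CPM with it. At an unadjusted p under 0.05 14 mitosis and 17 replication genes were lower and 0 of either higher, and DESeq2 called 8 and 8 lower and 0 higher. These counts moved with single libraries. For mitosis 5, 4, 6 and 5 members were called lower without shMock control replicate 1, shMock control replicate 2, shMock TGF-β1 replicate 1 and shMock TGF-β1 replicate 2, and 7 without shMTHFD2 control replicate 2. For replication 2, 6 and 4 were called lower without shMock control replicate 2, shMock TGF-β1 replicate 1 and shMock TGF-β1 replicate 2, and 20 on library totals.

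The inhibitor of cyclin-dependent kinases CDKN2B rose from 44.8 and 38.4 CPM to 213 and 227 CPM, and CDKN1C, a relative, fell from 18.9 and 22.8 CPM to 8.25 and 11.7 CPM. Cyclin D1, CCND1, fell from 415 and 424 CPM to 281 and 249 CPM, and the stress gene GADD45B rose from 37.98 and 44.1 CPM to 110.2 and 119 CPM. Of 27 genes in that list 5 rose (18.5%) and 4 fell (14.8%), near the shares over all tested genes (17.3% and 18.1%). Without shMock control replicate 1, shMock control replicate 2 or shMock TGF-β1 replicate 2, 3 rose, and on library totals 3 rose and 9 fell. CDKN1A, the best known p53 target, was not called, at 1452 and 1459 CPM without TGF-β1 and 1348 and 1300.0 CPM with it, and is named after its values were seen.

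Ribosomal protein genes lay near the median of all genes, with a median log2 fold change of -0.11. Of 78 members, 3 were higher (3.85%) and 14 lower (17.9%), against 17.3% and 18.1% of all tested genes. On library totals 0 were higher and 47 lower, and with GC and length offsets 6 were lower. The count of higher members was 0 without shMock control replicate 1 or shMock TGF-β1 replicate 1, and that of lower members was 3, 8 and 5 without shMock control replicate 2, shMock TGF-β1 replicate 1 and shMock TGF-β1 replicate 2. None of the 15 transcripts encoded by mitochondria was called by edgeR, 0 reached an unadjusted p under 0.05 and DESeq2 called 0, with a median of 0.12 that turns to -0.01 on library totals. MT-CO1, a subunit of cytochrome oxidase, stood at 16085 and 10959 CPM without TGF-β1 and 13200.0 and 13062 CPM with it. Without shMock control replicate 1, the shMock library with the highest mitochondrial share, 10 of them were called higher, and without shMock control replicate 2, 1 was called lower. With no filter beyond 1 count 4 were called higher.

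The same treatment in the shMTHFD2 line gave a response in libraries that share none with the shMock comparison. There 1725 genes were higher (12.8%) and 1489 lower (11%) with TGF-β1 at an edgeR adjusted p under 0.05. Of the 2333 genes that rose in shMock cells, 2213 (94.9%) had the same sign in the other line, 1392 (59.7%) were called in the same direction and 2 in the opposite. Of the 2443 that fell, 2260 (92.5%) had the same sign, 1169 (47.9%) were called in the same direction and 2 in the opposite. The median log2 fold change of the genes that rose was 0.542 in shMock and 0.40 in shMTHFD2, and that of the genes that fell was -0.575 and -0.354. The genes were chosen by their shMock values, so these medians are given without a test. Across the 13493 genes the log2 fold changes of both lines had a Pearson r of 0.75 and a Spearman rho of 0.693, given as a description, since all genes share the same libraries.

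The difference between the responses was itself tested. The edgeR interaction called 12 of 13493 genes (0.0889%), 5 with a higher and 7 with a lower value in shMTHFD2, and 11 of the 12 were also called in shMock. At an unadjusted p under 0.05 there were 1718 genes, and DESeq2 called 105. Among the named genes PTX3 fell less in shMTHFD2, with an interaction value of 1.07 on the log2 scale (SE 0.12, edgeR adjusted p = 0.00137). Its levels in that line were 81.6 and 82.1 CPM without TGF-β1 and 23.8 and 24.4 CPM with it. AMIGO2 rose less there, with 18.8 and 23.3 CPM without TGF-β1 and 163 and 172 CPM with it (interaction -0.89, SE 0.14, edgeR adjusted p = 0.031). The count of 12 is sensitive to single libraries: it was 42 without shMock control replicate 1, 4 without shMock control replicate 2, 3 without shMock TGF-β1 replicate 1, 185 without shMTHFD2 control replicate 1 and 3 without shMTHFD2 control replicate 2. ACTA2 had log2 fold changes of 3.66 in shMock and 3.23 in shMTHFD2, FN1 of 2.58 and 2.44, and COL1A1 of 1.10 and 1.317, and the interaction was not called for any of the 3 (adjusted p 0.159, 0.768 and 0.545).

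**Figure D5:**
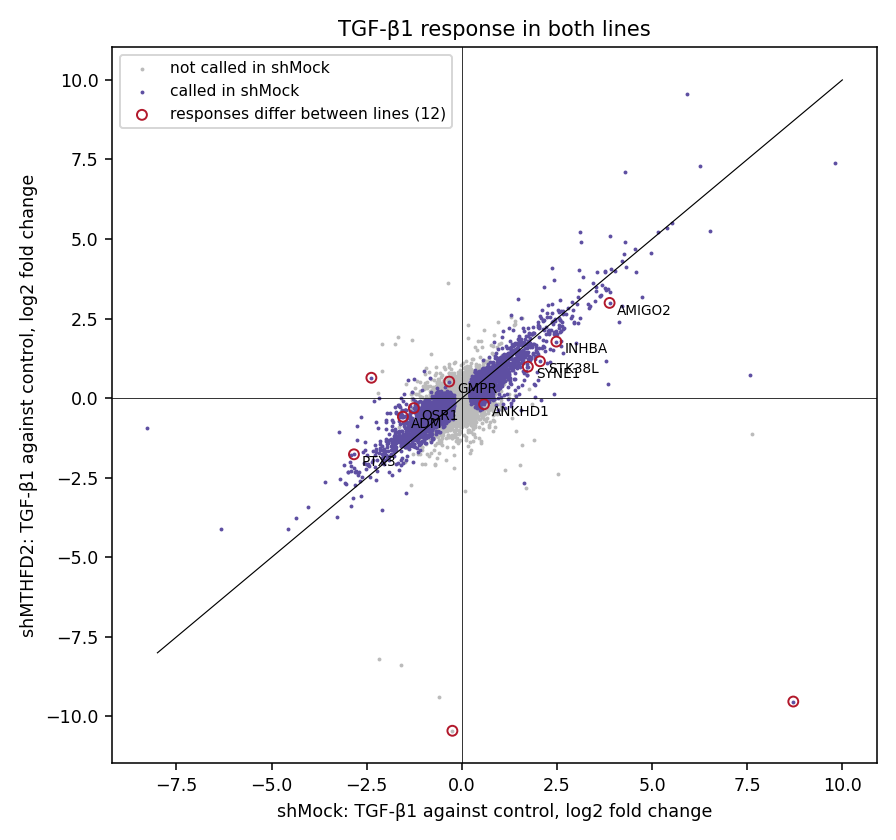
Log2 fold change of TGF-β1 against control in shMock cells (x axis) and in shMTHFD2 cells (y axis) for 13493 genes, with a line of equal values. Purple points are called in shMock, and red circles mark the 12 genes whose responses differ by the interaction test. Circled points without a name have no symbol in the name table, and values near 9 or -10 come from groups with no or few counts and depend on the fit.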

How the data were processed

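RNA was measured in MRC5 cells with the hairpins shMock or shMTHFD2, without and with TGF-β1, in 2 libraries a group. The deposited table holds whole-number counts, 1 column per library for 60666 Ensembl gene IDs, although its name speaks of FPKM. Per the submitters' processing notes, STAR 2.7.1a, DESeq2 1.32.0 and the build GRCh38 were used, while the sources used here do not name the read counter, the annotation or the use of strand. Symbols matched 60437 IDs, and positions and overlaps came from GENCODE release 29, which holds 58420.

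Genes averaging at least 1 CPM over the 8 libraries were tested with edgeR 4.0.16 (quasi-likelihood test, trimmed-mean factors, R 4.3.3), with all 8 libraries in 1 fit and 4 residual degrees of freedom, where the shMock libraries alone leave 2. The Benjamini-Hochberg adjustment ran over the 13493 genes, with 0.05 as the threshold, and SE values are derived from the F statistic and approximate. The biological coefficient of variation was 8.79%. Tested on simulated data for the shMock comparison with 13493 genes, the script recovered 28 of 50 genes at a fold of 1.5, 39 of 50 at 2, 46 of 50 at 4 and 50 of 50 at 8, with 18 false calls among 13293 unchanged genes. The simulation changed 50 genes at each fold, as many up as down. In the data 35.4% of tested genes were called, so these rates need not hold there. The members and the 43 gene lists, 6 of them cell type markers, were chosen with earlier results of these data known, and no list was tested. Named genes are MTHFD2 and 8 usual myofibroblast markers, the 20 highest and 20 lowest fold changes among called genes with at least 5 CPM in the higher group and groups that do not overlap, the 8 largest gains and losses in CPM, up to 4 higher and 4 lower members of each list (or, where none was called, the 2 most abundant), and up to 5 higher and 5 lower interaction values. Others are marked where they appear, and 4 of the genes are not reported here. Of the 298 genes so chosen, 294 were called, 32 overlap another gene on the same strand and 112 on the opposite strand. Counts of the 32 are uncertain also where the text does not say so, as for TNXB, LAMA5, ASNS, PYCR1, SHMT1, ALDH4A1, ATF5, AXIN2 and PSMB9. Alternatives were other scalings, filters, DESeq2 1.42.0 on the same counts, the shMock libraries alone in the fit, each library left out, a replicate block and offsets for GC and length.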

Additional observations from a re-analysis of the deposited data

Results flagged for a closer look

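The responses of the 2 lines differed by the interaction test for 12 genes, and the 9 with a symbol and at least 5 CPM are given as the value in shMTHFD2 minus that in shMock on the log2 scale. A smaller rise in shMTHFD2 was found for AMIGO2 (-0.89), INHBA (-0.71), STK38L (-0.89) and SYNE1 (-0.75). ANKHD1 had -0.77, with a log2 fold change of 0.58 in shMock and -0.19 in shMTHFD2. A smaller fall was found for PTX3 (1.07), ADM (0.97) and OSR1 (0.95). For PTX3 and ADM the lines differed mainly in the untreated level. ADM without TGF-β1 stood at 260.3 and 266 CPM in shMock and 164 and 126 CPM in shMTHFD2. With TGF-β1 it stood at 85.1 and 94.7 CPM and at 99.6 and 94.8 CPM. PTX3 without TGF-β1 stood at 166 and 162 CPM and at 81.6 and 82.1 CPM, and with it at 22.2 and 23.7 CPM and at 23.8 and 24.4 CPM. GMPR had 0.85, with a log2 fold change of -0.33 in shMock and 0.52 in shMTHFD2. Its call in shMock was lost without shMock control replicate 2 or shMock TGF-β1 replicate 1 (adjusted p 0.113 to 0.145), and with GC and length offsets (0.172). Without shMTHFD2 control replicate 2 or without shMock TGF-β1 replicate 1 the interaction called 3 genes.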

How the results depend on the processing

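In the comparison of shMock cells, 1614 to 2493 genes were called higher, 1683 to 2475 lower and 931 to 1049 with at least a 2-fold change when 1 library was left out. On library totals 3932 genes were called lower, all 2443 of the lower genes among them, and 1570 of the 2333 higher genes were called again. DESeq2 called 2356 higher and 2187 lower, and the shMock libraries alone in the fit gave 2419 higher, 2390 lower and 1031 past 2-fold. The interaction called 3 to 185 genes with 1 library left out, 105 with DESeq2, 321 with no filter beyond 1 count, 36 with a mean of at least 5 CPM and 21 with GC and length offsets, and the cause was not tested. The deviations of same-numbered libraries correlated at -0.025 to 0.081, so no shared deviation was seen. This cannot tell whether same-numbered libraries came from a shared culture or day, which the labels do not say. With a replicate block 2311 genes were higher, 2442 lower, 1020 past 2-fold and 13 called in the interaction, and with the block plus GC and length offsets these were 2357, 2299, 953 and 12. Of 298 named genes 41 lost their call without some shMock library and 27 under another setting, and none reversed. With 2 libraries a group, a change of 1.5-fold can be missed, and levels under 0.172 CPM rest on 3 counts or fewer.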

Other observations

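Of 951 long non-coding genes tested, 73 (7.68%) were called higher and 84 (8.83%) lower by edgeR, against 17.3% and 18.1% of all tested genes. The sets were not matched for level, which affects how easily a gene is called, so a weaker response is not shown. The genes named here were chosen after their values were seen. Those with a role in smooth muscle or as hosts of microRNAs included CARMN, the host of miR-143 and miR-145, which rose from 0.583 and 1.48 CPM to 7.45 and 10.4 CPM, and DNM3OS, the host of miR-199a and miR-214, which rose from 16.4 and 15.6 CPM to 54.96 and 103 CPM. MIAT rose from 14.2 and 12.3 CPM to 44.7 and 64.5 CPM, CASC15 from 1.30 and 1.48 CPM to 7.56 and 10.2 CPM and LINC01705 from 0.628 and 0.689 CPM to 6.49 and 4.98 CPM. MIR222HG, the host of miR-221 and miR-222, fell from 24.3 and 26.3 CPM to 10.4 and 14.7 CPM, and DPP4-DT, which starts beside DPP4, fell from 11.7 and 13.6 CPM to 2.61 and 2.75 CPM. The log2 fold changes in the shMTHFD2 line were 4.90, 2.06, 2.23, 2.21, 5.22, -1.34 and -1.95 in the same order. CARMN, DNM3OS, MIAT and CASC15 share bases with another annotated gene on their strand, and DPP4-DT overlaps one on the other strand.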
